A study of Drosophila melanogaster with 6 samples.

Results

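Octopamine and serotonin are amines that neurons of the fly release to tune other cells, and both have been tied to feeding, arousal and the response to hunger. Octopamine is made from tyrosine through tyramine, by a tyrosine decarboxylase and then a hydroxylase, and serotonin is made from tryptophan and taken back into neurons by a dedicated transporter. Both amines act through receptors coupled to G proteins, some of which raise or lower cyclic AMP while others release calcium. The 10 genes described here were chosen by name from 17489 in the count files: *Tdc2* and *Tbh* of octopamine synthesis, the octopamine receptor genes *Oamb*, *Octbeta1R* and *Octbeta2R*, the serotonin transporter gene *SerT*, and the serotonin receptor genes *5-HT1A*, *5-HT1B*, *5-HT2A* and *5-HT7*. All 10 had enough reads to be tested, among 11915 tested genes that had at least 10 counts in at least 3 libraries.

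The libraries held mRNA bound to FLAG-tagged Rpl3 ribosomes of male *Gr5a>UAS-Rpl3-3XFLAG* flies, in which Gr5a-GAL4 drives the tagged protein in sweet-sensing taste neurons. Flies were collected 2 days after eclosion and ate from day 5 to day 12 either a food of 5% sucrose, the control diet (CD + OSMI), or one of 30% sucrose, the sugar diet (SD + OSMI), and both held 10 µM OSMI-1, an inhibitor of the enzyme OGT, dissolved in 10% DMSO. There were 3 biological replicates per diet, each a pool of 300 heads, with the numbers 1 to 3 for CD + OSMI and 4 to 6 for SD + OSMI. Flies without OSMI, and input RNA, were not analysed here. Levels are given as CPM, the count scaled to the size of its library with the TMM factors of edgeR, and a log2 fold change is SD + OSMI over CD + OSMI.

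The total count per library was 13324513 to 16122009. The marker genes of the labelled cells were low. *Gr5a*, the sweet receptor gene whose promoter drove the tag, ranged from 0.368 to 1.34 CPM per kilobase of exon. No count was found in any library for 4 of 9 sweet receptor genes. The study reported *Gr5a*, *Gr64f*, *Gr64a* and *Ir56D* as enriched over input, and *Gr66a* and *Gr32a* as depleted. Input was not analysed here, so the levels given here do not measure that enrichment. Markers of other head cells were abundant, with 10 photoreceptor genes summing to 24680 to 31615 CPM on CD + OSMI and 22838 to 27298 CPM on SD + OSMI, and 12 general neuronal genes to 15082 to 16864 CPM and 13066 to 16017 CPM. Sums that did not overlap between the diets were those of 22 testis genes (1224 to 1849 against 2245 to 3723 CPM), 13 accessory gland genes (61.7 to 96.0 against 122 to 239 CPM), 6 fat body genes (8971 to 11169 against 6304 to 7819 CPM), 8 glial genes (1668 to 1759 against 1490 to 1591 CPM) and 2 dopaminergic genes (134 to 186 against 108 to 125 CPM). The part of these cells in the amine genes was not tested. By edgeR at an adjusted p under 0.1, 13 testis genes and 10 accessory gland genes were higher (6.91% of tested genes). Of the fat body genes 5 were lower (2.18% of tested genes), and 0 glial and 0 dopaminergic genes were called. The median log2 fold change of the 8 glial genes was −0.076, with 7 negative and 1 positive. SD + OSMI replicate 4 had the lowest testis sum of its diet, and leaving it out raised the share of tested genes lower on SD + OSMI from 2.18% to 6.81% and the share higher from 6.91% to 13.9%. Calls of named genes that turn on it are given with and without it. Fewer cells of a type and less mRNA per cell cannot be told apart in these pooled samples.

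Set on one scale by exon length, receptor mRNAs led the group and the synthesis genes were last. *5-HT2A* had the highest level, 31.2 CPM per kilobase of exon as the mean of the 6 libraries, and *Octbeta2R* followed at 28.2 CPM per kilobase. These leading receptors could not be ordered beyond their spread, since *5-HT2A* was the higher in 5 of 6 libraries and their ranges overlapped. *Octbeta1R* came next at 20.03 CPM per kilobase, lower than *Octbeta2R* in 6 of 6 libraries without overlap, and *5-HT1A* at 12.9 CPM per kilobase was lower again without overlap. *5-HT7* stood at 10.6 CPM per kilobase, under *5-HT1A* in 6 of 6 libraries although their ranges overlapped.

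The lower end of the order was crowded. *5-HT1B* (8.24 CPM per kilobase), *SerT* (7.62) and *Oamb* (7.44) overlapped each other in range, and *SerT* exceeded *Oamb* in 2 of 6 libraries only. With the longest transcript as the length instead of all annotated exons, *Oamb* moved from place 8 to place 6, at 10.0 CPM per kilobase, and the other genes kept their relative order. *Tbh* was at 5.22 CPM per kilobase, under *Oamb* in every library. *Tdc2* was last at 0.762 CPM per kilobase, so that the hydroxylase mRNA exceeded that of the decarboxylase ahead of it in the pathway by 4.29 to 9.87 times within a library.

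**Figure D1:**
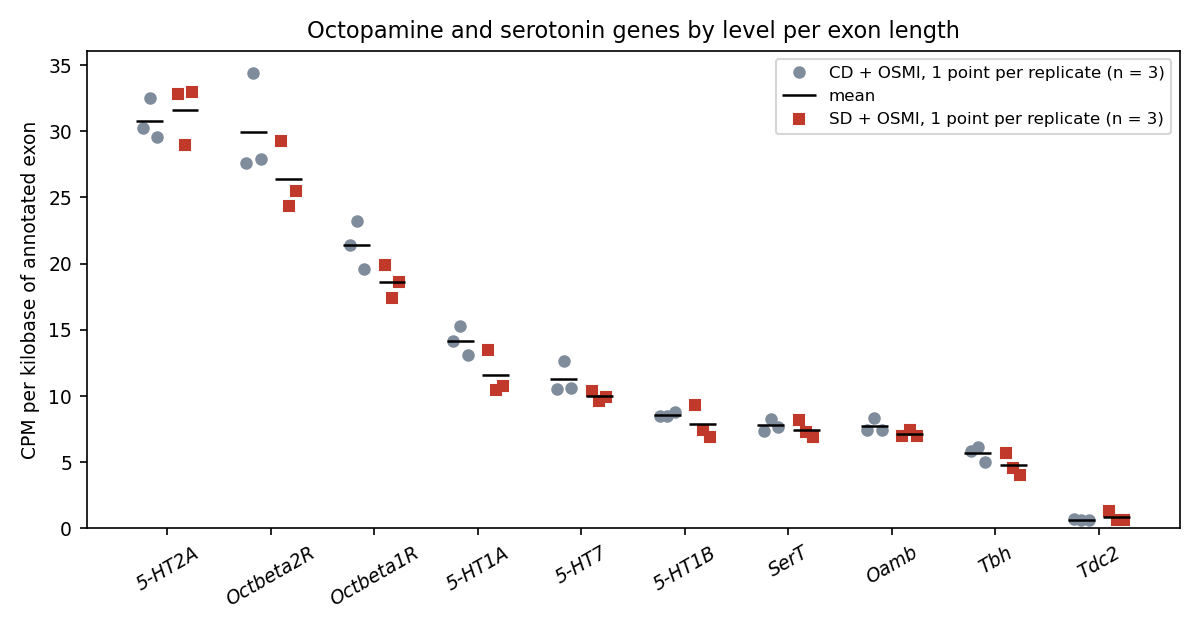
Level of each gene in CPM per kilobase of annotated exon (linear axis), in order of the mean over the 6 libraries. Circles are CD + OSMI replicates, squares are SD + OSMI replicates and bars are the means of 3. *5-HT2A* and *Octbeta2R* overlap at the top (means 31.2 and 28.2), and *Tdc2* lies at the bottom (0.762).

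None of the 10 genes differed between the diets at the study's threshold. By edgeR's quasi-likelihood test at an adjusted p under 0.1, 0 of 10 were higher and 0 of 10 were lower on SD + OSMI, where 6.91% of all tested genes were higher and 2.18% were lower, and DESeq2 (2.87% of tested genes lower, 9.16% higher) and limma-voom (1.79% and 6.55%) also called 0 of the 10. At an unadjusted p under 0.05, 2 of the 10 were lower, *5-HT1A* and *Octbeta1R*, and 0 were higher, beside 6.85% of all tested genes lower and 14.5% higher. The log2 fold change was below 0 for 8 of 10 genes, and for 50.4% of all tested genes. Its median was −0.15 over the 10 genes and −0.0027 over all tested genes. The median of 12 general neuronal genes was −0.16, and all 12 had a negative log2 fold change. Of these 12, edgeR and limma-voom called 0, and DESeq2 called 2 lower, beside 2.87% of tested genes.

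Octopamine synthesis was represented by a rare and a moderately abundant mRNA. *Tdc2* (FBgn0050446, chromosome 2R of BDGP6, 6684745 to 6689974) encodes the neuronal tyrosine decarboxylase, which makes tyramine. It had 25, 21 and 24 counts in CD + OSMI replicates 1 to 3 and 48, 23 and 19 counts in SD + OSMI replicates 4 to 6, which came to 1.61, 1.44 and 1.56 CPM against 3.04, 1.44 and 1.43 CPM. One library, SD + OSMI replicate 4, was thus at about the sum of any 2 others, and the remaining 5 lay within 0.2 CPM of each other. Its log2 fold change of 0.36 (SE 0.41, adjusted p = 0.666) had a 95% confidence interval from −30.5% to 137%, and without that library the log2 fold change was −0.084. The coefficient of variation was 47.0% among the SD + OSMI libraries and 5.75% among the CD + OSMI libraries, where counting alone gives 19.4% per library at this depth.

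*Tbh* (FBgn0010329, chromosome X, 7995697 to 8027394) encodes tyramine beta-hydroxylase, which turns tyramine into octopamine. It was at 22.5, 23.9 and 19.3 CPM on CD + OSMI and at 21.9, 17.7 and 15.7 CPM on SD + OSMI. Replicates 5 and 6 were below every CD + OSMI library, and replicate 4 was among them. For *Tbh* the log2 fold change was −0.25 (SE 0.15, adjusted p = 0.368), with an interval from −32.4% to 4.99%. It was −0.38 when SD + OSMI replicate 4 was left out and −0.14 when replicate 6 was.

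The octopamine receptor genes had similar, small differences, all toward lower values on the sugar diet. *Octbeta2R* (FBgn0038063, chromosome 3R, 12550625 to 12595725) encodes a receptor like the beta-adrenergic receptors of mammals, which raises cyclic AMP. Its mRNA was at 208, 259 and 209.8 CPM on CD + OSMI and at 219.8, 183 and 192 CPM on SD + OSMI, so that only replicate 4 overlapped the control range. A log2 fold change of −0.18 was estimated (SE 0.10, adjusted p = 0.320), which was −0.075 without CD + OSMI replicate 2. An exon of *Octbeta2R* holds *mir-284*, which had 0 counts, and no other of the 10 genes shares annotated exon sequence with another counted gene.

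*Octbeta1R* (FBgn0038980, chromosome 3R, 22497215 to 22520078), a second receptor of the beta type, was at 116, 126 and 106 CPM on CD + OSMI and at 107, 93.9 and 101 CPM on SD + OSMI. The diets overlapped only at CD + OSMI replicate 3 and SD + OSMI replicate 4. Its log2 fold change was −0.20 (SE 0.09, adjusted p = 0.208) and the interval ran from −23.9% to −0.753%, so that the unadjusted p of 0.0397 did not hold after adjustment. Without SD + OSMI replicate 4 the log2 fold change was −0.24 and the adjusted p 0.0917.

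*Oamb* (FBgn0024944, chromosome 3R, 20689018 to 20714577), which encodes a receptor like the alpha-adrenergic type that releases calcium, was at 41.2, 46.4 and 41.1 CPM on CD + OSMI and at 38.6, 41.0 and 38.8 CPM on SD + OSMI. The diets did not overlap, but by a narrow margin: the highest SD + OSMI library and the lowest CD + OSMI library differed by less than 0.2 CPM. *Oamb* had a log2 fold change estimated at −0.12 (SE 0.10, adjusted p = 0.507), and −0.060 without CD + OSMI replicate 2. *Oamb* and *5-HT7* were the 2 of 10 genes whose libraries were lower on SD + OSMI without overlap, which held for 10.2% of all tested genes.

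Proportions among *Octbeta2R*, *Octbeta1R* and *Oamb* barely moved. Other octopamine receptor genes were left out of the sum used here. These were *Octalpha2R*, at a mean of 214 CPM over the 6 libraries beside 212 CPM for *Octbeta2R*, and *Octbeta3R*, at 65.7 CPM. The shares are therefore not shares of all octopamine receptor mRNA. *Octbeta2R* made up 50.6 ± 1.61% (SD, n = 3) of the CPM per kilobase summed over the 3 receptor genes on CD + OSMI and 50.5 ± 1.38% (SD, n = 3) on SD + OSMI. For *Octbeta1R* the shares were 36.3 ± 1.45% and 35.7 ± 0.578% (SD, n = 3 each), and for *Oamb* 13.1 ± 0.414% and 13.7 ± 1.31% (SD, n = 3 each). In each case the difference between diets was smaller than the spread of at least one diet.

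**Figure D2:**
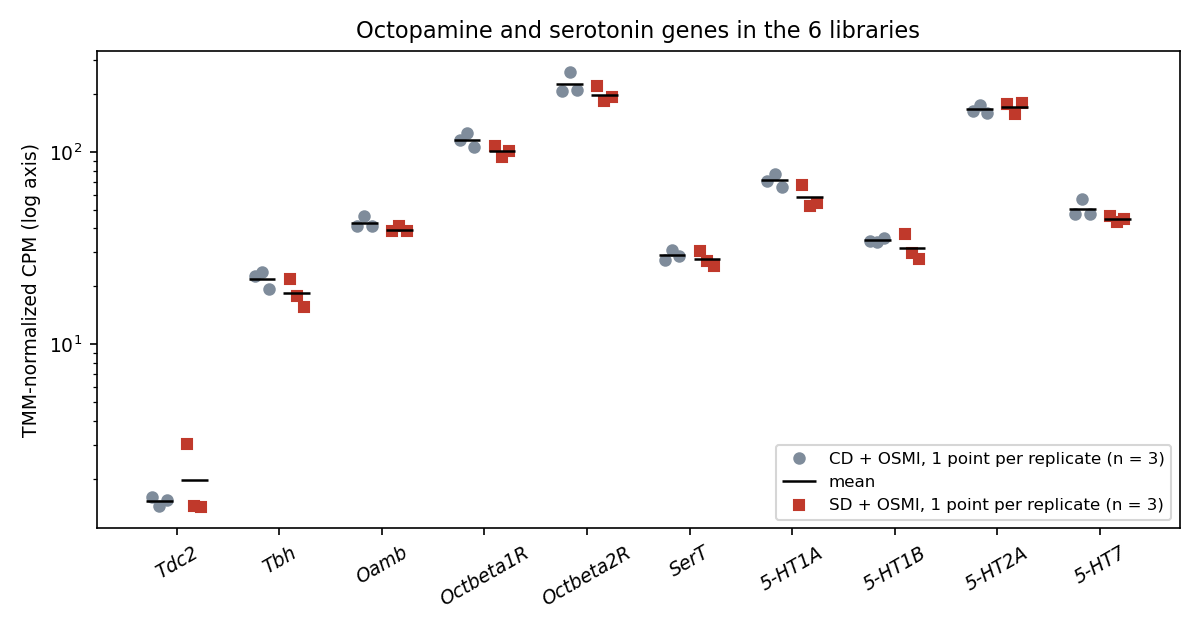
TMM-normalized CPM of the 10 genes on a logarithmic axis, with a circle for each CD + OSMI replicate, a square for each SD + OSMI replicate and a bar at the mean of 3. *Tdc2* is set apart by its low level and by SD + OSMI replicate 4 at 3.04 CPM, and the diets overlap for 8 of the 10 genes.

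The log2 fold changes of the serotonin genes ran from the lowest of the 10 genes, for *5-HT1A*, to a value near 0, for *5-HT2A*. *SerT* (FBgn0010414, chromosome 2R, 24404595 to 24411074) encodes the transporter that returns serotonin to the neurons that released it and serves as a marker of them. Its mRNA was at 27.3, 30.9 and 28.7 CPM on CD + OSMI and at 30.4, 27.2 and 25.7 CPM on SD + OSMI. The libraries of both diets were interleaved, and the log2 fold change was −0.06 (SE 0.11, adjusted p = 0.811), with values from −0.12, when SD + OSMI replicate 4 was left out, to −0.0056, when replicate 6 was.

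*5-HT1A* (FBgn0004168, chromosome 2R, 19067155 to 19121958) encodes a receptor that lowers cyclic AMP. It was at 70.9, 76.8 and 65.9 CPM on CD + OSMI and at 67.6, 52.6 and 54.0 CPM on SD + OSMI. Replicates 5 and 6 were below every control library, and replicate 4 lay inside the control range. This was the smallest p of the 10 genes, the log2 fold change being −0.29 (SE 0.11, unadjusted p = 0.0141, adjusted p = 0.125) and an interval from −30.2% to −4.63%. The adjusted p was 0.0732 with no filter on low counts (2.18% of genes lower, 5.68% higher) and 0.0123 without SD + OSMI replicate 4, where the log2 fold change was −0.40, and it ranged from 0.0123 to 0.431 over the 16 alternatives.

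*5-HT1B* (FBgn0263116, chromosome 2R, 19022325 to 19032642) encodes another receptor that lowers cyclic AMP, and its gene lies 34512 bases from *5-HT1A*. Its mRNA was at 34.3, 34.2 and 35.5 CPM on CD + OSMI and at 37.6, 29.9 and 27.7 CPM on SD + OSMI. The coefficient of variation was 16.3% on SD + OSMI. On CD + OSMI it was 2.11%, less than the 4.46% per library that counting alone gives at this depth. SD + OSMI replicate 4 was the highest of all 6 libraries and replicates 5 and 6 were the lowest. For *5-HT1B* the log2 fold change was −0.13 (SE 0.12, adjusted p = 0.587), which became −0.25 when SD + OSMI replicate 4 was left out and −0.037 when replicate 6 was.

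*5-HT7* (FBgn0004573, chromosome 3R, 30968236 to 31016875) encodes a receptor that raises cyclic AMP. It was at 47.3, 56.8 and 47.6 CPM on CD + OSMI and at 46.6, 43.2 and 44.6 CPM on SD + OSMI. All SD + OSMI libraries were lower than all CD + OSMI libraries, and the log2 fold change was −0.18 (SE 0.10, adjusted p = 0.331). Without CD + OSMI replicate 2, the highest library, it was −0.084.

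*5-HT2A* (FBgn0087012, chromosome 3R, 4612870 to 4633304), whose receptor signals through phospholipase C and calcium, had the log2 fold change nearest to 0. Its mRNA was at 164, 176 and 160 CPM on CD + OSMI and at 178, 157 and 179 CPM on SD + OSMI. Here the highest library belonged to the sugar diet, and the log2 fold change was 0.04 (SE 0.08, adjusted p = 0.848) and an interval from −9.50% to 16.3%. With 1 library left out it ranged from 0.0066, when that was SD + OSMI replicate 6, to 0.099, when it was replicate 5.

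These differences set *5-HT2A* apart from *5-HT1A* within a library, a contrast picked after the values were seen and so given without a test. The ratio of *5-HT2A* to *5-HT1A* per kilobase was 2.14, 2.13 and 2.25 in the CD + OSMI libraries and 2.44, 2.76 and 3.06 in the SD + OSMI libraries, and does not depend on the scaling of the libraries. Shares were taken of the CPM per kilobase summed over *5-HT1A*, *5-HT1B*, *5-HT2A* and *5-HT7*. The serotonin receptor gene *5-HT2B*, at a mean of 34.1 CPM, was left out of this sum. *5-HT2A* was at 47.5 ± 0.271% on CD + OSMI and 51.8 ± 2.42% on SD + OSMI (SD, n = 3 each). *5-HT1A* was at 21.9 ± 0.621% and 18.9 ± 1.35% (SD, n = 3 each). Neither share overlapped between the diets, with replicate 4 closest to the control range in both. The shares of *5-HT1B* (13.3 ± 0.950% and 12.9 ± 1.41%) and *5-HT7* (17.4 ± 0.894% and 16.4 ± 0.645%; SD, n = 3 each) overlapped.

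**Figure D3:**
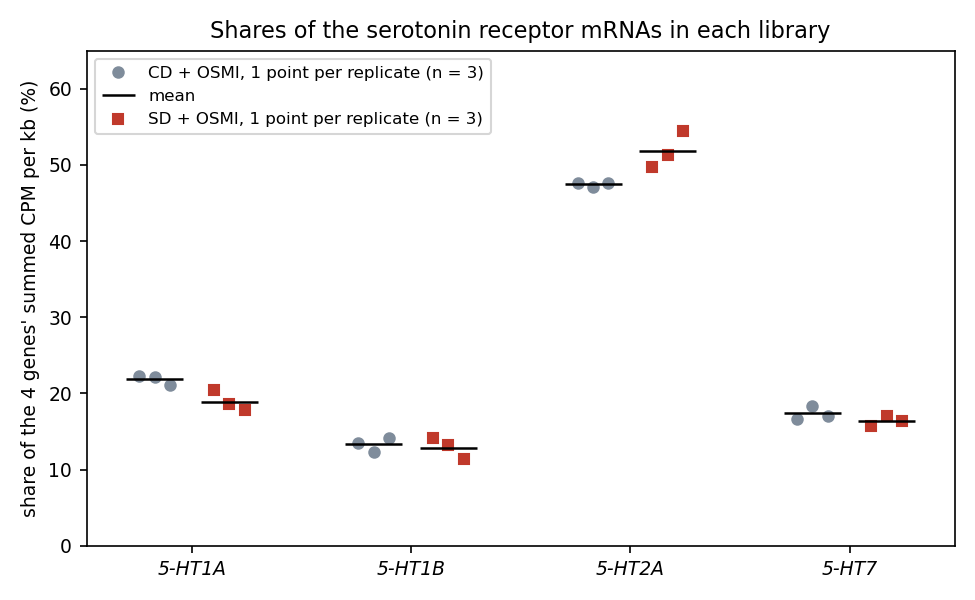
Share of each of 4 serotonin receptor genes in their summed CPM per kilobase, in percent, with *5-HT2B* left out. Circles are CD + OSMI replicates, squares are SD + OSMI replicates and bars are the means of 3. The squares lie above the circles for *5-HT2A* (49.7 to 54.5% against 47.2 to 47.7%) and below them for *5-HT1A* (17.8 to 20.4% against 21.1 to 22.3%).

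A missed threshold does not show that levels were alike, so the study's test of practical equivalence was applied, which asks whether a change of 1.5-fold or more can be rejected (q under 0.05 on a DESeq2 fit). It was passed by 8 of the 10 genes, beside 47.1% of all tested genes and 79% of those with a mean of at least 10 CPM, a group that takes in all of the 10 except *Tdc2*. The q was 1.86e-07 for *5-HT2A* and 0.0317 for *5-HT1A*, the extremes of those that passed. *Tbh* (q = 0.0626) and *Tdc2* (q = 0.431) did not pass. Leaving out 1 library at a time gave 7 to 9 equivalent genes, and a limit of 2-fold gave 9, beside 69.4% of all tested genes.

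In the rest of the pathway, 1 of 15 genes was lower and 0 were higher, beside 2.18% and 6.91% of all tested genes. *AANAT1*, also named *speck* (FBgn0019643), encodes the arylalkylamine N-acetyltransferase that acetylates octopamine, serotonin and dopamine. It was at 83.6, 79.2 and 96.7 CPM on CD + OSMI and at 69.2, 58.9 and 62.3 CPM on SD + OSMI, without overlap. Its log2 fold change was −0.45 (SE 0.10, adjusted p = 0.0261), so that it fell by 26.6%. The call was lost without CD + OSMI replicate 3 (log2 fold change −0.36, adjusted p = 0.134), SD + OSMI replicate 5 (−0.39, 0.140) or SD + OSMI replicate 6 (−0.43, 0.15), and with factors taken from the neuronal markers (−0.28, 0.174), and the adjusted p over all alternatives ranged from 0.00326 to 0.174. The sums of glial, fat body and dopaminergic markers were also lower on SD + OSMI without overlap, and their part in this fall was not tested. Of these markers, edgeR called 0 of 8 glial, 0 of 2 dopaminergic and 5 of 5 tested fat body genes lower.

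The other 14 genes did not pass with all 6 libraries, and without SD + OSMI replicate 4 a total of 4 of the 15 were lower, beside 6.81% of tested genes. *Pu*, which encodes the first enzyme in making the tetrahydrobiopterin cofactor of the hydroxylases that make serotonin and dopamine, was at 102, 104 and 96.4 CPM on CD + OSMI and at 92.9, 85.9 and 73.5 CPM on SD + OSMI (log2 fold change −0.26, adjusted p = 0.125, and −0.32 with 0.0303 without SD + OSMI replicate 4). *Vmat*, which encodes the transporter that loads amines into vesicles, was at 602, 652 and 577 CPM on CD + OSMI and at 577, 486 and 473 CPM on SD + OSMI (−0.25, adjusted p = 0.15). Its adjusted p was 0.0741 by DESeq2 and 0.0161 without SD + OSMI replicate 4, where the log2 fold change was −0.33. The third beta-type octopamine receptor gene *Octbeta3R* had 67.3, 75.2 and 67.6 CPM on CD + OSMI and 64.2, 56.9 and 63.2 CPM on SD + OSMI (−0.19, adjusted p = 0.235). Of all 15 genes 13 had a negative log2 fold change by TMM (50.4% of all tested genes). With factors taken from the neuronal markers 9 were negative and 6 positive (20.8% of tested genes negative). By the study's test 12 were practically equivalent (47.1%, or 79% at a mean of at least 10 CPM). At an unadjusted p under 0.05 by edgeR, 3 were lower (6.85%). Without overlap between the diets, 5 of the 15 were lower and 0 higher, beside 10.2% and 14.5% of tested genes.

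The enzyme genes that begin each amine differed in level. *Tdc1*, the decarboxylase gene used mainly outside neurons, lies 4353 bases from *Tdc2* on chromosome 2R and was at 6.53 to 8.69 CPM per kilobase, above *Tdc2* in every library. *Trhn*, the neuronal tryptophan hydroxylase gene that begins serotonin synthesis, was at 1.66 to 2.55 CPM per kilobase, below *SerT* in every library. *Gr5a* was in turn below every one of the 10 genes but *Tdc2* in all 6 libraries.

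**Figure D4:**
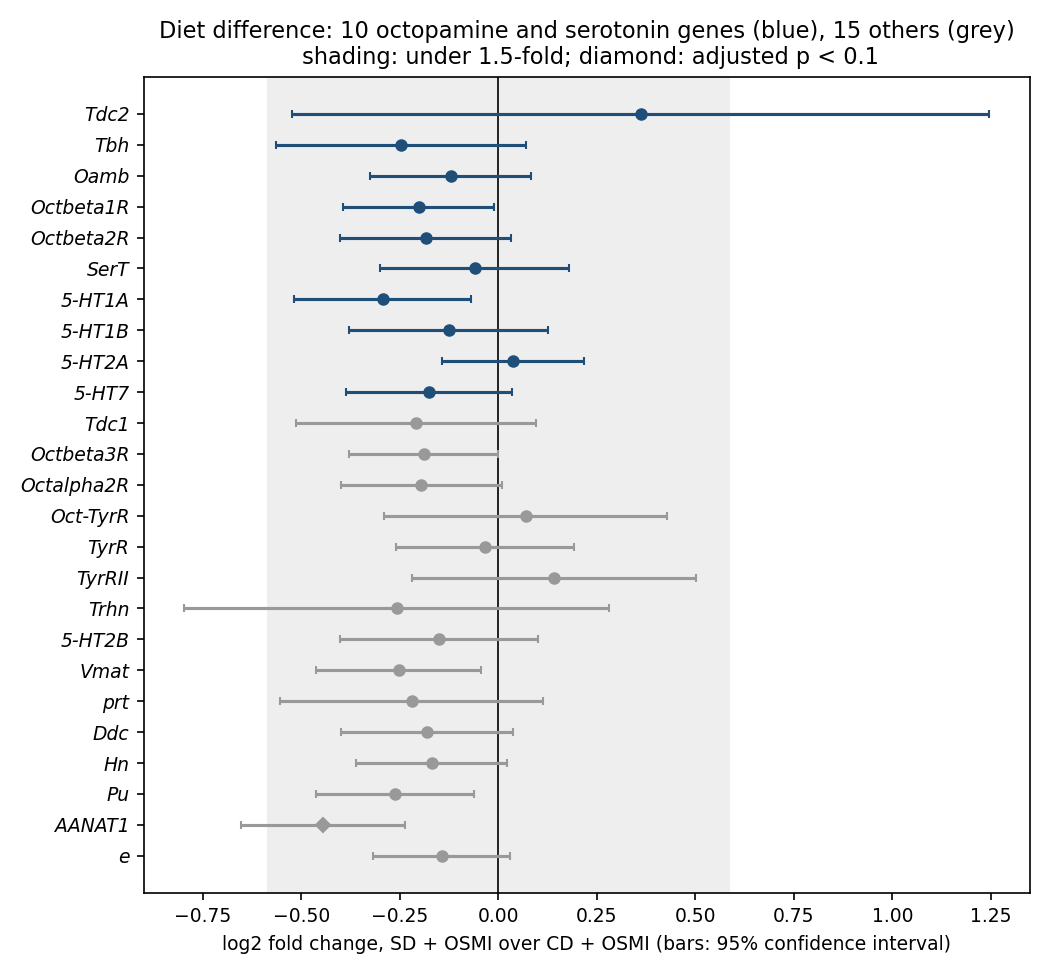
Log2 fold change, SD + OSMI over CD + OSMI, with its 95% confidence interval from edgeR, for the 10 octopamine and serotonin genes (blue) and the 15 other amine pathway genes (grey). Shading marks changes under 1.5-fold and the diamond marks *AANAT1* (−0.45), the single gene with an adjusted p under 0.1. The interval of *Tdc2* is the widest.

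Downstream of the receptors, none of 20 genes for G proteins, cyclic AMP and calcium signalling, kinases and arrestin was called by edgeR or limma-voom, and DESeq2 called 3 lower, beside 2.87% of tested genes. By TMM all 20 had a negative log2 fold change, as did 50.4% of tested genes. The values ran from −0.28 to −0.00017, with a median of −0.13. With factors taken from the neuronal markers 8 were negative and 12 positive, with a median of 0.051 (20.8% of tested genes negative). All 20 were practically equivalent (47.1% of tested genes, or 79% at a mean of at least 10 CPM), and 6 were lower at an unadjusted p under 0.05 (6.85%). The smallest p belonged to *CaMKII*, which encodes a calcium-activated kinase (log2 fold change −0.25, adjusted p = 0.106), *Plc21C*, a phospholipase C gene (−0.28, adjusted p = 0.111), *Ggamma1*, a G protein gamma subunit gene (−0.26, adjusted p = 0.158), and *CrebB*, which encodes a transcription factor activated by cyclic AMP (−0.19, adjusted p = 0.190). Without SD + OSMI replicate 4, 8 of the 20 were called lower, beside 6.81% of tested genes, among them *CaMKII* (adjusted p = 0.0129), *Plc21C* (0.0213), *Ggamma1* (0.0144) and *CrebB* (0.0459). *Plc21C* was also called without CD + OSMI replicate 1 (0.0683). The 3 genes that DESeq2 called with all 6 libraries were *CaMKII* (adjusted p = 0.0560), *Plc21C* (0.0521) and *Ggamma1* (0.0577).

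The direction of several of the 10 genes followed the scaling. When libraries were scaled to the 12 general neuronal genes in place of TMM, the median log2 fold change of all tested genes moved by 0.18. On that scale 6 of the 10 genes were positive and 4 negative, with a median of 0.02. *Oamb* (0.064), *SerT* (0.11), *5-HT1B* (0.040) and *5-HT7* (0.0048) changed sign, *5-HT1A* remained the lowest (−0.12, adjusted p = 0.428) and *5-HT2A* was at 0.22 (adjusted p = 0.139). None was called, beside 0.378% of tested genes lower and 7.11% higher on that scale, where 20.8% had a log2 fold change below 0. All 12 neuronal genes had a negative log2 fold change by TMM, so scaling to them raised the values of all 10 genes. Relative to those 12 genes the octopamine and serotonin genes lay on both sides of 0, a split that depends on the scale chosen.

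**Figure D5:**
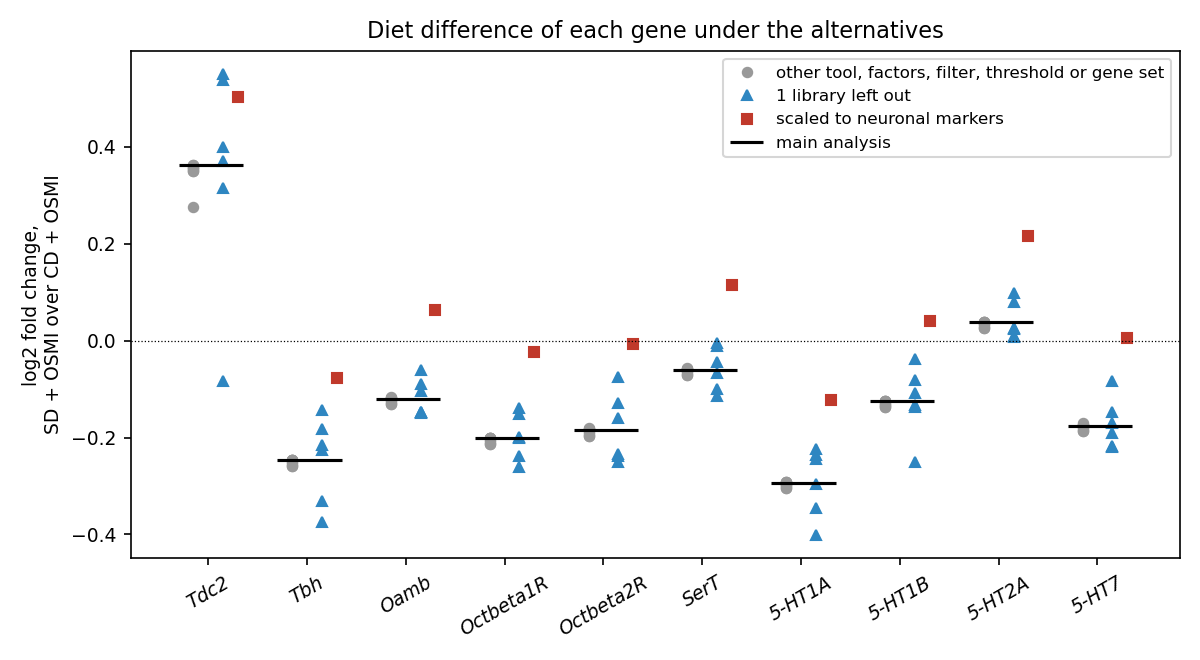
Log2 fold change of each gene, SD + OSMI over CD + OSMI: the black line is the main analysis, circles are other tools, factors, filters, thresholds or gene sets, triangles leave out 1 library each and squares are scaled to the neuronal markers. *Tdc2* falls to −0.084 in the fit without SD + OSMI replicate 4, and every square lies above its line.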

How the data were processed

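RNA-seq counts of 6 libraries of ribosome-bound RNA were used, 3 per diet, grouped by the dietary condition in the labels. After the authors removed low-quality reads, STAR aligned the remainder to BDGP6 (dm6), SAMtools 1.4 handled the alignments and HTSeq assigned them to genes, and the authors deposited the raw counts of 17489 genes without normalization. The strand setting and annotation release of the counting are not given in the sources used here. Names, positions and exon lengths came from the Ensembl annotation of BDGP6, and the ID of *AANAT1*, absent from it, was named from the study's table. The 10 genes, the lists and the tests were chosen with earlier results of these data known.

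Counts were fitted in R 4.3.3 with edgeR 4.0.16 (TMM, robust quasi-likelihood test, diet as the only term) and adjusted by Benjamini-Hochberg over the 11915 genes that reached 10 counts in 3 or more libraries. The SE is the log2 fold change divided by the square root of F, and intervals are 95%. DESeq2 1.42.0 (the authors' test, there at version 1.18.0), limma-voom (limma 3.58.1), RLE, upper-quartile and neuronal-marker factors, no filter, a minimum of 50 counts, a threshold of 0.05, omitting testis and accessory gland genes, omitting the 20 genes of highest count, and omitting each library were the alternatives. Equivalence limits of 2-fold and 1.25-fold were also tried. Named genes are the 10, the called genes of the other lists and the 4 with the smallest p of each. The fits were tested on simulated data. Plots used Python 3.11.15 and matplotlib 3.10.9. Of 140 list entries, 1 fat body gene was not matched. Total counts per library were 13324513 to 16122009, TMM factors 0.956 to 1.04, and chi-square over its degrees of freedom was 10.4 to 32.8 between replicates of a diet, so no library was a duplicate.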

Additional observations from a re-analysis of the deposited data

How the results depend on the processing

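No fit called any of the 10 genes higher on SD + OSMI. The number called lower was 0, beside 2.18% of tested genes, and became 1 with no filter, where 2.18% of all genes were lower. It was 0 to 2 when 1 library was left out. The 2 came without SD + OSMI replicate 4, where 6.81% of tested genes were lower. For the 15 other pathway genes, the number lower was 1 and became 2 with DESeq2 (2.87% of tested genes) and 2 with no filter (2.18%). It became 0 with neuronal marker factors (0.378%) and 0 to 4 without 1 library. The 4 came without SD + OSMI replicate 4 (6.81%). For the 20 effector genes the number lower was 0 and became 3 with DESeq2 (2.87%) and 2 with no filter (2.18%). It became 2 with RLE factors, 2 with a minimum of 50 counts and 1 without the 20 most abundant genes. Shares of all genes were not counted for these last fits. Without 1 library the number lower was 0 to 8, and the 8 came without SD + OSMI replicate 4 (6.81%). Practically equivalent genes among the 10 were 8, and 0 with the stricter limit, at which no tested gene passed, and 7 to 9 without 1 library. Of 159 alternative values of the 10 genes' log2 fold changes, 151 kept their direction and their side of the threshold, 3 passed it (*5-HT1A* with no filter, and *5-HT1A* and *Octbeta1R* without SD + OSMI replicate 4) and 5 changed sign. These were *Tdc2* without SD + OSMI replicate 4 (−0.084, the lowest of its values without 1 library, the highest being 0.55) and, with neuronal marker factors, *Oamb* (0.064), *SerT* (0.11), *5-HT1B* (0.040) and *5-HT7* (0.0048). Those factors left 0.378% of tested genes lower and 7.11% higher, against 2.18% and 6.91%. *Tdc2* had too few counts for the minimum of 50. No paired analysis was possible from the labels, because they give the diets no replicate number in common (1 to 3 and 4 to 6). The names of the deposited files number both diets 1 to 3, but nothing in the labels ties those numbers to shared flies or days, and a fit that pairs them was not run. *Tdc2* had 19 to 48 counts per library, the fewest of the 10 genes. Levels per kilobase moved by more than the spread between replicates for *5-HT2A* (38.7) and *Oamb* (10.0) with the longest transcript as length.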

Other observations

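The genes whose profile over the 6 libraries lay closest to 2 of the amine genes were looked up among 11868 tested genes with a count in every library, by the Euclidean distance between log2 CPM profiles centred on their means. Closest to *5-HT1A*, the gene with the smallest p, were *Syt1*, the gene of the calcium sensor of vesicle release (distance 0.0641), the potassium channel gene *Shawl* (0.0760) and *Gfrl* (0.0778), where the median over all genes was 0.688. Among the other 9 amine genes *Tbh* was nearest to *5-HT1A*, at place 179 (0.188), and *Tdc2* farthest, at place 7740 (0.953). Its genomic neighbor *5-HT1B* was at place 1047 (0.299). Closest to *Octbeta2R*, the gene with the highest CPM, were *CG42322* (0.0470), *elg1* (0.0585) and *CG43867* (0.0613). Of the amine genes, *5-HT7* was at place 48 (0.124) and *Octbeta1R* at place 202 (0.164). The closest genes were picked for their small distances among 11868, and no distance expected by chance was computed.

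The highest of the 6 libraries was CD + OSMI replicate 2 for 7 of the 10 genes, SD + OSMI replicate 4 for 2 and SD + OSMI replicate 6 for 1. The lowest was an SD + OSMI library for all 10: replicate 5 for 5 genes, replicate 6 for 4 and replicate 4 for 1. The same ranks were not counted over all tested genes, so these numbers have no background beside them. CD + OSMI replicate 2 also had the lowest TMM factor, 0.956, while SD + OSMI replicate 5 had the highest, 1.04, and the part of the scaling in these ranks was not tested. Among receptor genes for tyramine, *TyrRII* had a log2 fold change of 0.14 (adjusted p = 0.682), *Oct-TyrR* of 0.07 (adjusted p = 0.858) and *TyrR* of −0.03 (adjusted p = 0.895), none of which was called.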
